A study of Mus musculus with 9 samples.

Results

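DBL cells of the mouse lung, sorted for expression of both a type I collagen reporter and a Foxf1 reporter, were compared with the average of 2 populations sorted for expression of only 1 of them. The comparison used all 9 libraries of the series: 3 of DBL (replicates 1, 3 and 4), 3 of ColGFP cells expressing the collagen reporter alone (replicates 1, 2 and 3) and 3 of TDonly cells expressing the Foxf1 reporter alone (replicates 1, 2 and 3). All came from C57BL/6J mice of the genotype Col1_GFP;Foxf1_tdTomato, so the controls carried both transgenes as well and differed from DBL in what was sorted. The sources used here do not give the age or sex of the mice, the sort gates, the reporters' promoters, or whether a library pooled several mice. Members were the genes whose 3 DBL libraries all lay above, or all below, the 6 others. Of 15550 genes with enough counts to test, 489 lay above (3.14%) and 266 below (1.71%).

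Foxf1 is a forkhead transcription factor that acts downstream of hedgehog signals in the lung mesenchyme and is also made by lung endothelium, so a reporter of Foxf1 can mark both lineages. Type I collagen is made by fibroblasts of the alveoli, of the adventitia around vessels and airways, and, at varying levels, by mesothelium, pericytes and smooth muscle. Mesothelium is the flat cell layer that covers the lung, and adventitial fibroblasts form cuffs around bronchovascular bundles and are known for making chemokines, R-spondins and small proteoglycans. In bulk libraries, fewer cells of a type and less RNA per cell cannot be told apart.

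Levels are in CPM (read counts relative to the library's TMM-scaled size), and stand per library in the order of the replicate numbers or as mean ± SD (n = 3). Library totals were 17820969 to 26147475 counts, of which 2.77 to 7.90% belonged to Rn45s, the precursor of ribosomal RNA. By their sequencing core numbers, the 3 replicate 1 libraries form a lower series and the 6 others a higher series, which no label calls a batch. The series entered the fit as a covariate. The ± beside a log2 difference is a standard error derived from the test statistic of that fit, not an SD among libraries. Values without the lower series are given for some results, and a count given once can still differ without it. No label says that replicates are separate mice, so p-values rest on the spread among these samples, which may be technical.

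The genes behind the sort were read first. Foxf1 (Foxf1a in the table; chromosome 8, 121084386 to 121088144, plus strand, mm10) measured 113, 87.3 and 103 CPM in DBL, 61.9, 62.5 and 54.5 in ColGFP and 279, 231 and 229 in TDonly. DBL lay between both single-reporter populations in every library, and the averaged difference did not pass (log2 -0.26 ± 0.08, adjusted p = 0.0712). Within the higher series alone it did pass as lower (log2 -0.26, adjusted p = 0.0278). Col1a1 (chromosome 11, 94936224 to 94953042, plus strand), a chain of type I collagen, measured 9539, 12241 and 13224 CPM in DBL, 4939, 9593 and 9182 in ColGFP and 373, 1493 and 1566 in TDonly. Its averaged log2 difference was 2.10 ± 0.23, adjusted p = 0.000433, and the difference from ColGFP alone was 0.64 ± 0.27 (adjusted p = 0.141). Col1a2, the other chain, measured 8925 ± 1299 CPM in DBL, 6419 ± 2137 in ColGFP and 867 ± 494 in TDonly, with log2 differences of 2.07 ± 0.22 from the average and 0.56 ± 0.26 from ColGFP (adjusted p = 0.178). Within the higher series alone, Col1a1 and Col1a2 were both called higher than each single-reporter population. Reporter-negative populations were thus not free of the transcripts: ColGFP held Foxf1 reads and TDonly held Col1a1 reads in every library.

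Against the average of both single-reporter populations, 1480 genes were higher in DBL (9.52% of those tested) and 400 lower (2.57%) at an adjusted p under 0.05. The contrast gives each population a weight of 0.5 on the log scale, so a gene with DBL between the 2 populations can pass it. The DBL mean was above both populations for 845 of the 1480 and between them for 635. It was below both for 282 of the 400 and between them for 118. Of the 1480, 155 lay below the arithmetic mean of both populations. To count genes outside the range, DBL was tested against each population in the same fit: 286 genes were higher than both (1.84%) and 80 lower than both (0.514%). These 2 contrasts share the DBL libraries. Counts of gene lists below are to be read against the percentages over all genes given here. That libraries do not overlap is read from the same values as the tests and is given as a description.

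Genes on the high side differed by more than genes on the low side. For the 489 genes above, the median of the smaller of the 2 pairwise log2 differences was 0.77, and 190 were at least 2-fold above both populations. For the 266 genes below it was 0.26, with 21 at least 2-fold below both. The averaged contrast called 400 of the 489 and 114 of the 266, and both pairwise tests called 245 and 60. Of the genes above, 363 lay nearer to ColGFP and 126 nearer to TDonly, whereas the genes below were split 137 to 129. The median averaged log2 difference was 1.23 above, -0.38 below and -0.01 over all genes tested. The counts depend on single libraries. Genes higher in the averaged contrast numbered 872 without DBL replicate 1. Genes lower numbered 166, 175 and 136 when DBL replicate 1, 3 or 4 was left out, 260 when ColGFP replicate 3 was left out, and 222 and 225 when TDonly replicate 2 or 3 was. Genes higher than both numbered 175 without DBL replicate 1. Genes lower than both numbered 45, 49 and 35 when DBL replicate 1, 3 or 4 was left out, and 45 and 48 when TDonly replicate 2 or 3 was.

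**Figure D1:**
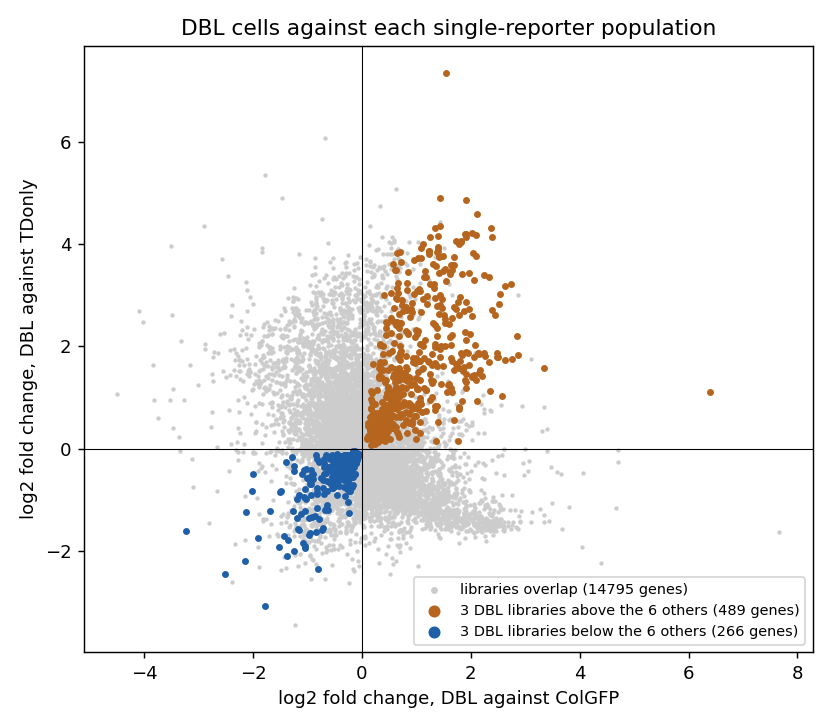
Each point is a gene, with its log2 fold change of DBL against ColGFP on the horizontal axis and against TDonly on the vertical axis. Brown points are the 489 genes whose 3 DBL libraries lie above the 6 others, blue points the 266 that lie below, and grey points all other genes tested; the brown points reach farther from the origin than the blue.

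Named genes were ranked by the smaller of their 2 pairwise changes, and an enzyme of retinoic acid synthesis came first on the high side. Aldh1a2 (chromosome 9, 71215789 to 71296243, plus strand) encodes a retinaldehyde dehydrogenase that makes retinoic acid and marks mesothelium. It measured 149, 117 and 124 CPM in DBL, 11.8, 45.4 and 31.6 in ColGFP and 7.99, 32.04 and 32.2 in TDonly. The lowest DBL library was more than 2-fold above the highest of the others. The log2 difference from the average was 2.55 ± 0.36, adjusted p = 0.00156. It was 2.40 ± 0.44 from ColGFP (adjusted p = 0.00417) and 2.71 ± 0.45 from TDonly (adjusted p = 0.00112). Another enzyme of the same step, Aldh1a3 (chromosome 7, 66390890 to 66427517, minus strand), measured 68.4, 51.7 and 53.8 CPM in DBL, 6.39, 22.1 and 18.7 in ColGFP and 1.68, 6.73 and 6.37 in TDonly. DBL again did not overlap the other libraries (averaged log2 2.93 ± 0.34, adjusted p = 0.000623). The antisense model Gm48124 overlaps Aldh1a2, and the sources used here do not say whether counting used the strand.

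Of 14 retinoic acid genes tested, 4 were higher and 1 lower, with a median averaged log2 difference of 0.33. The serum and tissue carrier Rbp4 rose by 2.0 ± 0.18, with its libraries overlapping ColGFP. Dhrs3, a reductase that returns retinaldehyde to retinol, was the lower gene. It measured 79.00, 87.2 and 96.9 CPM in DBL, 98.97, 127 and 118 in ColGFP and 93.3, 119.9 and 123 in TDonly, with log2 differences of -0.38 ± 0.08 from ColGFP and -0.35 ± 0.08 from TDonly (adjusted p = 0.00685 and 0.00628). Without DBL replicate 4 or the series covariate the lower count was 0, and without TDonly replicate 1 it was 2. The retinoic acid receptors of the list and the degrading enzyme Cyp26b1 did not pass.

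Because Foxf1 is a forkhead factor, the RefSeq promoters of the table (GRCm38.p6, 250 bases before to 50 after a start) were searched for the forkhead core TGTTTAC and its reverse complement GTAAACA, on both strands. Among genes tested, 383 of 11982 with a promoter entry held it (3.20%), against 13 of 360 genes above (3.61%) and 3 of 201 below (1.49%). The promoter of Aldh1a2 has no match, whereas Il33, an alarmin that was higher in DBL, and Dhrs3 each have 1 in an entry of theirs, as does Rbp4. Of the genes named by size of change, 0 of 10 on the high side and 0 of 6 on the low side with an entry hold it. Aldh1a2, Il33 and Dhrs3 are shown, as the gene that ranked first and a higher and a lower gene with a match, on the gene's strand, with the match in capitals: Aldh1a2 at chr9:71215539-71215838, Il33 at chr19:29924863-29925162 and Dhrs3 at chr4:144892887-144893186.
Aldh1a2: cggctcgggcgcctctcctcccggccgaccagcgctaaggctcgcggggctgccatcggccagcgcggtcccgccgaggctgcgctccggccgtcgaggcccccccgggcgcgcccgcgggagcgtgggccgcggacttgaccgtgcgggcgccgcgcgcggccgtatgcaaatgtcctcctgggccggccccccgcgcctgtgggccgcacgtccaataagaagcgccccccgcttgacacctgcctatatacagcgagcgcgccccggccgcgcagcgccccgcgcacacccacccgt
Il33: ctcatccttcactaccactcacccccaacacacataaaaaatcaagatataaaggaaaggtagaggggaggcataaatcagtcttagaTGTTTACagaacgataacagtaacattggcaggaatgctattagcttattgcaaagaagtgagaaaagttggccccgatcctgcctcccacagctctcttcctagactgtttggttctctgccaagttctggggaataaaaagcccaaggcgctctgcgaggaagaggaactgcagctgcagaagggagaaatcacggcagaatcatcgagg
Dhrs3: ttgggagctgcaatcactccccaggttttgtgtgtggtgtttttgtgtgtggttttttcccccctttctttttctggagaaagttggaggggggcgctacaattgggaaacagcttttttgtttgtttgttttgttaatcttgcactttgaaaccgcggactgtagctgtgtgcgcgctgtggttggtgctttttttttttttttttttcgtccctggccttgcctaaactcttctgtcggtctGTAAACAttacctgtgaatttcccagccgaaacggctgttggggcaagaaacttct
A match is a string of letters and not a measured site.

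Most mesothelial transcripts tested were higher in DBL than the average of the single-reporter populations, many of them higher than both. Of 20 mesothelium genes tested, 15 were higher and none lower, 10 were higher than both populations, and 13 had DBL libraries above all others; the median averaged log2 difference was 1.64. Mesothelin, Msln, a surface glycoprotein of mesothelium, measured 277, 226 and 218 CPM in DBL, 40.3, 52.6 and 38.8 in ColGFP and 27.4, 102 and 97.6 in TDonly (averaged log2 2.14 ± 0.30, adjusted p = 0.00169). Lrrn4 (chromosome 2, 132868305 to 132880891, minus strand), a leucine-rich repeat membrane protein of mesothelium, measured 116, 103 and 106 CPM in DBL, 18.9, 37.3 and 22.5 in ColGFP and 11.4, 48.7 and 40.6 in TDonly (averaged log2 2.01 ± 0.30, adjusted p = 0.00248). For both genes the lowest library was TDonly replicate 1, and all 3 DBL libraries stood clear of the rest. The tight junction claudin Cldn15 measured 35.9 ± 1.07 CPM in DBL, 11.8 ± 4.10 in ColGFP and 13.2 ± 5.32 in TDonly, higher than ColGFP by 1.68 ± 0.22 and than TDonly by 1.54 ± 0.22. Summed over the list, CPM ranged from 6610 to 8659 in DBL, 2205 to 4654 in ColGFP and 649.1 to 1624 in TDonly. The list count was 17 within the higher series and 12 to 17 when single libraries were left out.

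Complement C3, made by mesothelium and fibroblasts, dominated that sum. It measured 7410.0, 5518 and 6046 CPM in DBL, 1787, 4135 and 4169 in ColGFP and 409.9, 1036 and 1071 in TDonly, and the differences were 1.07 ± 0.33 from ColGFP (adjusted p = 0.0459) and 3.08 ± 0.35 from TDonly. Of 28 complement and coagulation genes, 10 were higher and 1 lower, with a median of 0.48, and 2 were higher than both populations. Factor B, Cfb, the protease of the alternative pathway, measured 566, 235 and 243 CPM in DBL, 58.8, 132 and 125 in ColGFP and 45.5, 53.3 and 53.2 in TDonly. DBL replicate 1 stood above the other DBL libraries, which were still above all 6 others. The initiating protease C1ra and tissue factor F3 had non-overlapping DBL libraries, with averaged differences of 1.79 ± 0.17 and 1.46 ± 0.14, but did not pass against ColGFP (adjusted p = 0.0932 and 0.0868). The lower gene was C1qb at -1.18 ± 0.33, a complement subunit made by macrophages and chosen here after its values were seen. That lower count was 0 when replicate 1 or 3 of DBL, or replicate 2 or 3 of either control, was left out, and 4 without TDonly replicate 1. The count higher than both was 1 when DBL replicate 4, or replicate 2 or 3 of either control, was left out, 4 without TDonly replicate 1, 1 without the series covariate and 5 within the higher series.

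Adventitial fibroblast transcripts formed the largest group. Of 28 genes tested, 23 were higher and none lower (median 1.83), 14 were higher than both populations and 13 had non-overlapping DBL libraries. The ferritin receptor Scara5 measured 391, 685 and 719 CPM in DBL, 60.02, 291 and 270.0 in ColGFP and 11.96, 59.00 and 65.5 in TDonly (averaged log2 2.93 ± 0.24, adjusted p = 0.00012). Endosialin, Cd248, measured 237, 265 and 312 CPM in DBL, 44.3, 135 and 118 in ColGFP and 9.78, 31.4 and 37.7 in TDonly (averaged log2 2.61 ± 0.23, adjusted p = 0.000179). For both, ColGFP was the nearer population and TDonly the farther. Decorin, Dcn, a small proteoglycan that binds collagen fibrils, measured 3648 ± 779.6 CPM in DBL, 1597 ± 804 in ColGFP and 252 ± 161 in TDonly, and was higher than ColGFP by 1.40 ± 0.30 and than TDonly by 4.16 ± 0.33. The fibril-associated collagen Col14a1 measured 1568 ± 252 CPM in DBL, 869 ± 405 in ColGFP and 140.0 ± 79.6 in TDonly, with 1.03 ± 0.26 and 3.72 ± 0.29. Neither DESeq2, limma-voom nor an unadjusted p under 0.05 called a lower gene in the mesothelium or adventitial list. Within the higher series 27 of the 28 were higher, and leaving out single libraries gave 20 to 26. Without the series covariate, 5 rather than 14 members were higher than both populations. Summed CPM of the list was 14140 to 17270 in DBL, 6834 to 11450 in ColGFP and 3537 to 4413 in TDonly.

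Chemokine genes were also on the high side, in part the same genes, since Ccl11 and Il33 are counted in the adventitial list too. The averaged contrast called 12 of 27 chemokines and cytokines higher and none lower (median 0.92), 8 were higher than both populations and 9 had non-overlapping DBL libraries. Within the higher series, 15 were called higher and 1 lower. The count higher than both was 4 when DBL replicate 1 or replicate 3 of either control was left out, and 5 when DBL replicate 4 or replicate 1 or 2 of ColGFP was. Ccl11 (chromosome 11, 82057823 to 82062955, plus strand), the eosinophil attractant eotaxin, measured 106, 89.6 and 101 CPM in DBL, 5.72, 33.2 and 32.5 in ColGFP and 2.57, 5.17 and 9.72 in TDonly (averaged log2 3.34 ± 0.39, adjusted p = 0.000613). All 6 other libraries lay far below the lowest DBL library. The monocyte attractant Ccl7 measured 60.4, 22.7 and 26.6 CPM in DBL, 3.85, 14.3 and 13.1 in ColGFP and 1.79, 1.96 and 2.90 in TDonly; DBL replicate 1 was the highest. Cxcl1, a neutrophil attractant, measured 155, 209 and 207 CPM in DBL, 36.7, 127 and 115 in ColGFP and 6.24, 16.02 and 21.98 in TDonly, with differences of 1.23 ± 0.25 from ColGFP and 3.87 ± 0.28 from TDonly. The alarmin Il33 measured 156, 109 and 105 CPM in DBL, 34.8, 48.4 and 41.6 in ColGFP and 60.95, 55.5 and 54.4 in TDonly, and unlike Ccl11 and Cxcl1 it lay lower in ColGFP than in TDonly. Its differences were 1.55 ± 0.17 and 1.11 ± 0.16 (adjusted p = 0.00016 and 0.000536).

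**Figure D2:**
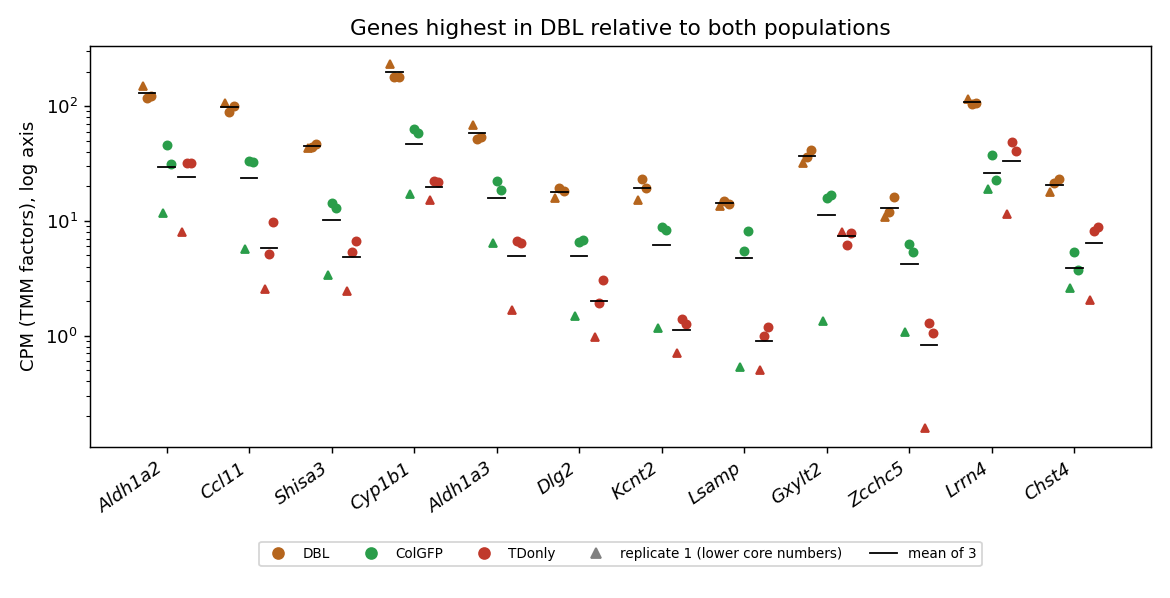
CPM (log axis) in each of the 9 libraries for the 12 named genes with the largest smaller change on the high side; triangles are the replicate 1 libraries and black lines the means of 3. Every DBL point lies above all ColGFP and TDonly points of the same gene, and the ColGFP and TDonly triangles are often the lowest.

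The other genes with the largest changes were enzymes, channels and adhesion proteins. Cyp1b1 (chromosome 17, 79701537 to 79715061, minus strand), a cytochrome P450 that oxidises steroids and retinoids, measured 232, 179 and 179 CPM in DBL, 17.2, 63.6 and 58.4 in ColGFP and 15.2, 22.1 and 22.02 in TDonly (averaged log2 2.81 ± 0.29, adjusted p = 0.000335). Shisa3 (chromosome 5, 67607882 to 67623552, plus strand), a membrane protein that holds back WNT and FGF receptors, measured 43.2, 44.2 and 46.8 CPM in DBL, 3.35, 14.3 and 13.1 in ColGFP and 2.46, 5.41 and 6.73 in TDonly (averaged log2 2.85 ± 0.27, adjusted p = 0.000228). DBL libraries of Shisa3 differed little among themselves, and ColGFP lay above TDonly on average. Shisa3 shares part of its locus with Atp8a1 on the opposite strand. Gxylt2 (chromosome 6, 100704734 to 100810913, plus strand), a xylosyltransferase of Notch repeats, measured 32.2, 36.3 and 41.3 CPM in DBL, 1.34, 15.97 and 16.7 in ColGFP and 7.99, 6.17 and 7.91 in TDonly. Its averaged difference of 2.09 ± 0.45, adjusted p = 0.015 was lost without DBL replicate 1 (adjusted p = 0.102) and without DBL replicate 4 (adjusted p = 0.0577). Chst4 (chromosome 8, 110029153 to 110039740, minus strand), a sulfotransferase that makes L-selectin ligands, measured 17.8, 21.2 and 23.1 CPM in DBL, 2.59, 5.32 and 3.74 in ColGFP and 2.07, 8.17 and 8.92 in TDonly, and here ColGFP was the lower of both controls on average.

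Genes better known from the nervous system were among them. Dlg2 (chromosome 7, 90476672 to 92449247, plus strand), a scaffold of synapses, measured 15.7, 19.5 and 18.3 CPM in DBL, 1.48, 6.59 and 6.84 in ColGFP and 0.974, 1.92 and 3.08 in TDonly. The sodium-activated potassium channel Kcnt2 (chromosome 1, 140246158 to 140612067, plus strand) measured 15.2, 23.3 and 19.3 CPM in DBL, 1.16, 8.89 and 8.36 in ColGFP and 0.701, 1.40 and 1.27 in TDonly. Lsamp (chromosome 16, 39984361 to 42181679, plus strand), an immunoglobulin-type adhesion protein, measured 13.5, 14.9 and 14.1 CPM in DBL, 0.537, 5.44 and 8.22 in ColGFP and 0.507, 1.00 and 1.19 in TDonly. In all 3, TDonly was lowest and ColGFP between, and the averaged log2 differences were 2.68 ± 0.28, 3.05 ± 0.32 and 3.02 ± 0.45. Zcchc5 (now Rtl3; chromosome X, 106837082 to 106840644, minus strand), derived from a retrotransposon, measured 10.8, 12.03 and 16.1 CPM in DBL, 1.07, 6.23 and 5.41 in ColGFP and 0.156, 1.28 and 1.06 in TDonly (averaged log2 3.04 ± 0.35, adjusted p = 0.000522).

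Cadherins and protocadherins, calcium-dependent adhesion proteins, had 10 of 17 genes higher and 1 lower (median 0.58), with 4 higher than both populations. Pcdh19 measured 28.5, 44.3 and 42.97 CPM in DBL, 5.63, 19.7 and 20.5 in ColGFP and 5.11, 4.33 and 6.51 in TDonly (averaged log2 2.13 ± 0.24, adjusted p = 0.000523). P-cadherin, Cdh3, measured 8.57 ± 0.499 CPM in DBL, 3.36 ± 0.677 in ColGFP and 2.74 ± 1.16 in TDonly, and N-cadherin, Cdh2, 5.57 ± 0.245 CPM in DBL, 3.71 ± 0.235 in ColGFP and 3.58 ± 0.57 in TDonly. Their averaged differences were 1.5 ± 0.25 and 0.62 ± 0.14. Without DBL replicate 1, 6 members were higher. Higher than both were 2 members when DBL replicate 1 or replicate 2 or 3 of ColGFP was left out, and 1 without the series covariate. Cdh2 then missed the threshold (adjusted p = 0.138), as it did without DBL replicate 3 (0.0516) or 4 (0.0737).

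In the WNT pathway, a ligand, R-spondins and a secreted inhibitor had DBL above all others. Of 29 genes tested, 15 were higher and 3 lower (median 0.79), and 3 were higher than both populations. The median was -0.42 against ColGFP and 1.78 against TDonly, and 20 had a DBL mean between both. Summed CPM of the list was 1483 to 1592 in DBL, 1756 to 1928 in ColGFP and 870.4 to 900.3 in TDonly. The ligand Wnt2b measured 55.6, 78.9 and 81.6 CPM in DBL, 12.8, 39.6 and 37.5 in ColGFP and 11.1, 17.4 and 19.7 in TDonly (averaged log2 1.79 ± 0.16, adjusted p = 0.00017). Rspo1, which amplifies WNT signals through Lgr receptors, measured 34.4, 25.8 and 26.3 CPM in DBL, 5.68, 13.4 and 11.3 in ColGFP and 3.59, 10.1 and 9.50 in TDonly (averaged log2 1.83 ± 0.28, adjusted p = 0.00246). The secreted inhibitor Sfrp2 measured 47.1 ± 3.28 CPM in DBL, 16.8 ± 3.15 in ColGFP and 12.7 ± 6.87 in TDonly, a difference of 1.53 ± 0.33 from ColGFP and 2.0 ± 0.34 from TDonly. Rspo3, at a low level of 3.24 ± 0.394 CPM in DBL, 1.77 ± 0.54 in ColGFP and 1.40 ± 0.48 in TDonly, did not pass against ColGFP (adjusted p = 0.0638). Activators and an inhibitor of the pathway were thus both on the high side. The BMP and TGF-beta list had 33 members tested, with 10 called higher and 2 lower (median 0.14). In that list 2 were higher than both populations and 25 had a DBL mean between both. Its median was -0.18 against ColGFP and 0.88 against TDonly. Its summed CPM was 5607 to 5985 in DBL, 5863 to 6441 in ColGFP and 6170 to 6286 in TDonly. The activin antagonist follistatin, Fst, measured 30.7, 25.7 and 26.2 CPM in DBL, 4.20, 14.5 and 12.1 in ColGFP and 2.38, 2.80 and 3.65 in TDonly (averaged log2 2.41 ± 0.27, adjusted p = 0.000486). Without DBL replicate 1, 3 or 4 the lower BMP and TGF-beta count was 1, 0 and 0, and without TDonly replicate 1 it was 4. Without the series covariate it was 1, with 5 higher.

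Matrix genes were often higher than the average, with TDonly low and DBL near ColGFP. Of 20 elastic fibre genes, 16 were higher in the averaged contrast and 2 were higher than both populations. Fibulin-2, Fbln2, measured 374, 536 and 565 CPM in DBL, 96.5, 279 and 265 in ColGFP and 66.7, 100.1 and 103 in TDonly (averaged log2 1.88 ± 0.15, adjusted p = 0.000104), and Emilin2 113 ± 10.8 CPM in DBL, 49.2 ± 20.2 in ColGFP and 31.4 ± 17.95 in TDonly (averaged log2 1.69 ± 0.23, adjusted p = 0.00145). Of 32 collagen chains, 16 were higher and 1 lower, and 3 were higher than both. Col6a6 differed by 1.09 ± 0.29 from ColGFP and 3.92 ± 0.33 from TDonly. Col4a4, a basement membrane chain, measured 92.00, 114 and 104 CPM in DBL, 63.7, 54.6 and 45.2 in ColGFP and 61.03, 85.96 and 74.5 in TDonly, and its controls were ordered the other way, with ColGFP below TDonly. Of 16 matrix proteoglycans 9 were higher and 3 of them higher than both, among them Podn at 1.01 ± 0.28 and 3.09 ± 0.30. Prg4, the lubricant lubricin of serosal and joint surfaces, measured 33.4, 8.02 and 10.3 CPM in DBL, 4.56, 4.36 and 4.30 in ColGFP and 2.14, 2.08 and 1.98 in TDonly, with DBL replicate 1 far above the other DBL libraries. The median averaged difference was 0.96 for elastic fibre, 0.67 for collagens and 1.15 for proteoglycans. From ColGFP the medians were -0.14, -0.35 and 0.23, and from TDonly 2.05, 1.98 and 2.68. The DBL mean lay between both populations for 14, 22 and 8 members. Summed CPM of elastic fibre genes was 11900 to 15830 in DBL and 15800 to 18680 in ColGFP. For proteoglycans it was 7858 to 9865 and 8640 to 11150, and for collagens 41660 to 48790 and 28440 to 44870. Without DBL replicate 4 no collagen chain was lower, and without TDonly replicate 1 there were 3. The chains higher than both numbered 0 without ColGFP replicate 2, 1 without the series covariate and 6 within the higher series. Without the covariate, 0 elastic fibre genes and 1 proteoglycan were higher than both by edgeR, and 5 proteoglycans were within the higher series.

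Transcripts of the imprinted Dlk1-Dio3 locus were higher together. Of 7 genes tested, 5 were higher, 3 higher than both populations, and 4 had non-overlapping DBL libraries (median 2.14). The long non-coding RNA Meg3 (chromosome 12, 109541001 to 109571726, plus strand) measured 216, 212 and 196 CPM in DBL, 48.9, 104 and 109.8 in ColGFP and 20.6, 31.8 and 31.3 in TDonly (averaged log2 2.14 ± 0.17, adjusted p = 0.000112). Rian, a host transcript of small nucleolar RNAs and microRNAs, measured 72.5, 93.3 and 82.2 CPM in DBL, 17.4, 45.2 and 36.5 in ColGFP and 5.38, 9.81 and 8.48 in TDonly (averaged log2 2.43 ± 0.15, adjusted p = 5.62e-05). Rtl1, a retrotransposon-derived gene that is transcribed from the paternal copy, measured 19.4, 25.5 and 23.1 CPM in DBL, 3.49, 10.5 and 9.79 in ColGFP and 1.60, 2.28 and 2.51 in TDonly (averaged log2 2.54 ± 0.19, adjusted p = 9.07e-05). In each the order was DBL, ColGFP, TDonly, and replicate 1 was the lowest library of both controls. The locus was put on a list with earlier results of these data known.

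Among transcription factors of the lung mesenchyme and hedgehog genes, 15 of 21 were higher and 2 lower (median 0.96), and 3 were higher than both populations. The median was 0.02 against ColGFP and 2.54 against TDonly, and 10 had a DBL mean between both. Summed CPM was 1556 to 1953 in DBL, 4034 to 5073 in ColGFP and 1026 to 1206 in TDonly. The count higher than both was 1 when DBL replicate 4 or replicate 2 or 3 of ColGFP was left out. It was 5 without TDonly replicate 1, 1 without the series covariate and 5 within the higher series. Gli1, a target and effector of hedgehog signals, measured 83.4, 94.7 and 100.2 CPM in DBL, 44.6, 74.5 and 65.98 in ColGFP and 3.90, 10.9 and 11.9 in TDonly. All DBL libraries lay above the others, yet the difference from ColGFP of 0.63 ± 0.20 did not pass (adjusted p = 0.057). Osr1 differed by 0.65 ± 0.25 from ColGFP (adjusted p = 0.0985) and by 3.82 ± 0.28 from TDonly. Twist2, a basic helix-loop-helix factor of mesenchyme, measured 9.95, 19.9 and 21.6 CPM in DBL, 2.10, 10.04 and 7.99 in ColGFP and 0.507, 1.56 and 1.49 in TDonly, higher than ColGFP by 1.5 ± 0.21 and than TDonly by 3.93 ± 0.24, with DBL replicate 1 within the ColGFP range. The forkhead gene Foxc1 measured 26.3 ± 9.20 CPM in DBL, 14.8 ± 5.52 in ColGFP and 9.64 ± 0.877 in TDonly (averaged log2 1.09 ± 0.20, adjusted p = 0.00731). It was the member higher than both populations among 14 genes of the Foxf1 locus and forkhead partners, of which 5 were higher and none lower (1 lower without TDonly replicate 1). No member of that list was higher than both by edgeR without the series covariate, nor when replicate 3 or 4 of DBL, replicate 1 or 3 of ColGFP, or TDonly replicate 2 was left out. Without each of 7 libraries (all but ColGFP replicate 1 and TDonly replicate 1) the lower count of the mesenchyme list was 1, and without TDonly replicate 1 it was 3.

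Of 16 pericyte genes, 6 were higher and none lower (median 0.25). Notch3, the Notch receptor of mural cells, measured 173, 187 and 194 CPM in DBL, 132, 118 and 120.0 in ColGFP and 49.9, 85.6 and 77.2 in TDonly (averaged log2 0.99 ± 0.13, adjusted p = 0.00103). Periostin, Postn, measured 158, 155 and 162 CPM in DBL, 107, 102 and 101 in ColGFP and 42.4, 75.1 and 77.6 in TDonly (averaged log2 0.96 ± 0.14, adjusted p = 0.00226), and Ndufa4l2 11.5 ± 2.80 CPM in DBL, 5.48 ± 1.27 in ColGFP and 3.42 ± 0.322 in TDonly (averaged log2 1.39 ± 0.14, adjusted p = 0.000294). These 3 were higher than both populations, a count that was 1 when any DBL library or replicate 2 or 3 of ColGFP was left out, or without the series covariate. Abcc9, a potassium channel subunit of pericytes, did not differ detectably from ColGFP (0.07 ± 0.19) and rose against TDonly (3.71 ± 0.22).

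**Figure D3:**
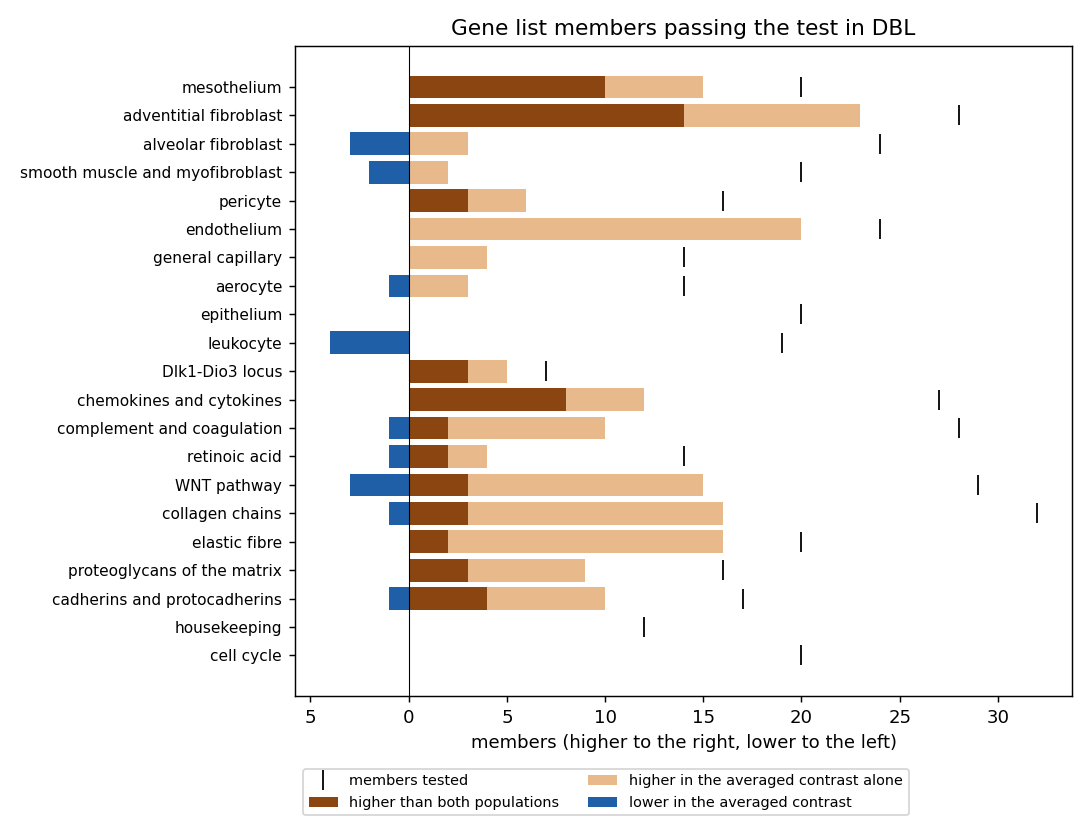
Bars count the members of each gene list called higher (right, dark brown where DBL passed against both populations, light brown where the averaged contrast alone passed) or lower (left, blue); the black tick is the number tested. Mesothelium and adventitial fibroblast lists have the longest dark bars (10 of 20 and 14 of 28), whereas the 20 endothelium genes called higher have none.

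Endothelial genes passed the averaged contrast with DBL inside the range of both populations. Of 24 tested, 20 were higher and none lower, 0 were higher than both by edgeR, DESeq2 or limma-voom, and all 24 had a DBL mean between ColGFP and TDonly. Their median log2 difference was 0.43 from the average, 2.38 from ColGFP and -1.48 from TDonly. Flt1, a VEGF receptor, measured 294, 242 and 251 CPM in DBL, 57.7, 50.03 and 43.4 in ColGFP and 746, 709 and 743 in TDonly, an averaged difference of 0.45 ± 0.08, adjusted p = 0.00545. Against the arithmetic mean of both populations Flt1 was lower, at -0.58, since the average of logs lies below that mean where the populations differ widely. Tie1 and Robo4, other endothelial receptors, changed sign in the same way. Leaving out DBL replicate 1 left 6 endothelium genes higher, and leaving out DBL replicate 3 left 12. Without the series covariate, 7 were higher. Summed endothelial CPM was 5648 to 7492 in DBL, 1130 to 1532 in ColGFP and 16140 to 18810 in TDonly.

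Alveolar fibroblast and smooth muscle genes likewise lay mostly between, with ColGFP highest. Of 24 alveolar fibroblast genes 3 were higher and 3 lower (12.5% each, against 9.52% higher and 2.57% lower over all genes). In this list 21 had a DBL mean between both (median -0.13, with -1.63 against ColGFP and 1.58 against TDonly). Enpp2, which makes lysophosphatidic acid, measured 66.6, 76.7 and 72.8 CPM in DBL, 694, 520.4 and 655 in ColGFP and 69.1, 86.3 and 94.1 in TDonly. Its log2 difference was -3.12 ± 0.15 from ColGFP (adjusted p = 1.73e-06) and -0.20 ± 0.14 from TDonly (adjusted p = 0.288). The lower count was 1 without DBL replicate 4, 11 without TDonly replicate 1 and 12 within the higher series. The higher count was 0 when DBL replicate 1 was left out or the series covariate was, and 1 when DBL replicate 3 or 4, or replicate 2 or 3 of ColGFP, was left out. Of 20 smooth muscle and myofibroblast genes, 2 were higher and 2 lower, counts that were 9 and 4 within the higher series. The higher count was 8 without ColGFP replicate 1, and 1 when any DBL library, replicate 2 of either control, or ColGFP replicate 3 was left out. The lower count was 4 without TDonly replicate 1, and 1 when any DBL library, or replicate 2 or 3 of either control, was left out.

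Genes with DBL below both populations changed less than those above. The 12 named ones had averaged log2 differences between -1.09 and -0.60. Prkcq (chromosome 2, 11172108 to 11301222, plus strand), a protein kinase C of lymphocyte signalling, measured 7.32, 6.89 and 6.99 CPM in DBL, 19.6, 14.8 and 13.9 in ColGFP and 11.1, 15.02 and 15.7 in TDonly (averaged log2 -1.09 ± 0.16, adjusted p = 0.00226). Its 3 DBL libraries were nearly equal, and the closest of the others was TDonly replicate 1. Carbonic anhydrase Car2 (chromosome 3, 14886273 to 14900770, plus strand) measured 31.7, 38.4 and 37.6 CPM in DBL, 56.8, 57.8 and 62.6 in ColGFP and 49.7, 64.97 and 69.5 in TDonly (averaged log2 -0.75 ± 0.08, adjusted p = 0.000425). Irg1 (now Acod1; chromosome 14, 103046977 to 103056573, plus strand), the itaconate-making enzyme of activated macrophages, measured 7.66, 8.92 and 8.52 CPM in DBL, 13.95, 11.98 and 13.95 in ColGFP and 15.00, 16.6 and 26.1 in TDonly. Its averaged difference of -0.93 ± 0.17, adjusted p = 0.00749 missed the threshold without DBL replicate 4 (adjusted p = 0.0520).

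Transcriptional and signalling regulators were among them. The homeobox gene Hlx (chromosome 1, 184727140 to 184732619, minus strand), active in mesenchyme of the developing gut and liver, measured 46.5, 31.5 and 37.8 CPM in DBL, 71.2, 56.4 and 53.2 in ColGFP and 103, 72.3 and 72.7 in TDonly (averaged log2 -0.87 ± 0.08, adjusted p = 0.00018). Hes1 (chromosome 16, 30064384 to 30067796, plus strand), a repressor induced by Notch, measured 40.03, 52.99 and 56.2 CPM in DBL, 67.5, 83.7 and 79.6 in ColGFP and 71.9, 78.9 and 78.2 in TDonly (averaged log2 -0.63 ± 0.07, adjusted p = 0.00063). In the list of VEGF, angiopoietin and Notch genes, Hes1 was the lower gene of 27, and 11 were higher, among them Notch3. That lower count was 3 without ColGFP replicate 1 and 3 within the higher series. Of the 27, 22 had a DBL mean between both populations, and 1 was higher than both. The count higher than both was 0 when any DBL library was left out. The median log2 difference was 0.64 from ColGFP and -0.63 from TDonly. Summed CPM of the list was 4701 to 5008 in DBL, 3051 to 3194 in ColGFP and 8568 to 9099 in TDonly. Fgfr3, an FGF receptor, measured 132, 163 and 181 CPM in DBL, 281, 353 and 359.8 in ColGFP and 204, 223 and 203 in TDonly, and both differences passed (-1.06 ± 0.10 from ColGFP and -0.41 ± 0.10 from TDonly). Of 19 FGF and HGF genes 2 were higher and 2 lower (10.5% each, against 9.52% higher and 2.57% lower over all genes). The lower count was 1 without DBL replicate 3, 5 without ColGFP replicate 1 and 4 without TDonly replicate 1, and the higher count was 1 without DBL replicate 1 or 4.

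Pde4b (chromosome 4, 102087543 to 102607259, plus strand), which breaks down cyclic AMP, measured 283, 235 and 222 CPM in DBL, 370.4, 383 and 437 in ColGFP and 521, 310.1 and 312 in TDonly. Its averaged difference of -0.66 ± 0.14, adjusted p = 0.0164 missed the threshold without DBL replicate 1, 3 or 4 (adjusted p = 0.0782, 0.0638 and 0.107). Elmo1 (chromosome 13, 20090596 to 20608353, plus strand), part of a Rac activator, measured 72.1, 74.3 and 82.5 CPM in DBL, 126, 102 and 116 in ColGFP and 122, 122 and 122 in TDonly (averaged log2 -0.63 ± 0.08, adjusted p = 0.00119). The TDonly libraries of Elmo1 were nearly identical, and DBL lay below the lowest ColGFP library. Mtss1 (chromosome 15, 58941234 to 59082005, minus strand), which bends membranes and binds actin, measured 92.2, 91.9 and 90.3 CPM in DBL, 142, 134 and 122 in ColGFP and 143, 160.1 and 164 in TDonly (averaged log2 -0.65 ± 0.08, adjusted p = 0.000605). The Rap GTPase regulator Sipa1l2 (chromosome 8, 125418063 to 125569808, minus strand) measured 117, 128 and 135 CPM in DBL, 193, 174 and 181 in ColGFP and 183, 211 and 209 in TDonly.

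Neurocalcin Ncald (chromosome 15, 37366175 to 37792570, minus strand), a calcium sensor, measured 80.1, 90.8 and 84.2 CPM in DBL, 174, 170.1 and 172 in ColGFP and 111, 131 and 138 in TDonly (averaged log2 -0.79 ± 0.07, adjusted p = 0.000219). The collagen galactosyltransferase Glt25d2 (now Colgalt2; chromosome 1, 152399830 to 152510695, plus strand) measured 29.4, 32.6 and 32.1 CPM in DBL, 43.1, 49.7 and 54.7 in ColGFP and 54.7, 54.4 and 56.4 in TDonly (averaged log2 -0.73 ± 0.08, adjusted p = 0.000318). Ogfrl1 (chromosome 1, 23366424 to 23397772, minus strand) measured 17.00, 21.1 and 17.97 CPM in DBL, 43.5, 32.8 and 29.5 in ColGFP and 27.7, 27.1 and 29.2 in TDonly (averaged log2 -0.75 ± 0.13, adjusted p = 0.00571). All 3 had DBL below every other library. For Ncald the log2 difference was -1.02 ± 0.08 from ColGFP and -0.57 ± 0.08 from TDonly.

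**Figure D4:**
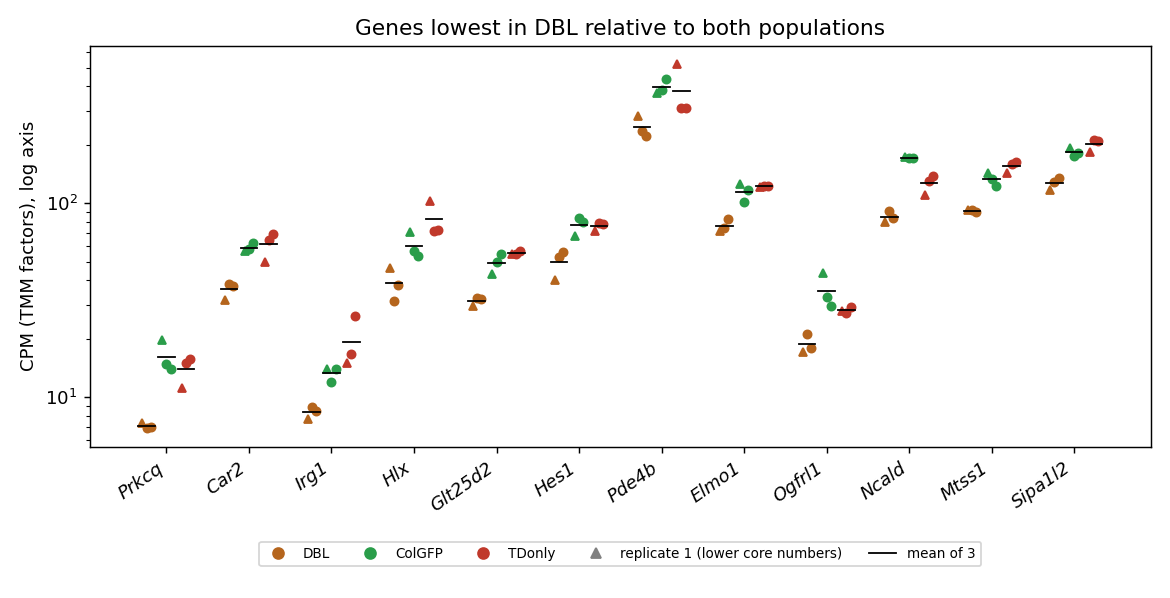
CPM (log axis) per library for the 12 named genes on the low side, drawn as for the high side. Every DBL point lies below all ColGFP and TDonly points of its gene, by less than on the high side.

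Markers of cells outside both reporters were read beside the low side. Of 19 leukocyte genes, none were higher and 4 lower (among them Cd68, Mrc1 and Itgax, markers of macrophages and dendritic cells), with a median of -0.85, and 0 were lower than both populations by edgeR (1 by DESeq2, 0 by limma-voom). At an unadjusted p under 0.05, 12 were lower and 0 higher. Mrc1, the macrophage mannose receptor, measured 4.73, 12.03 and 16.3 CPM in DBL, 15.7, 11.1 and 18.3 in ColGFP and 17.2, 46.9 and 72.6 in TDonly (averaged log2 -1.34 ± 0.36, adjusted p = 0.0412). Summed leukocyte CPM was 2167 to 2264 in DBL, 1422 to 3730 in ColGFP and 3624 to 4363 in TDonly, and no marker mean was at 0. The lower count was 0 without DBL replicate 1 or 3, 2 without DBL replicate 4 or ColGFP replicate 3, 1 without TDonly replicate 2 or 3, 9 without ColGFP replicate 1, 0 without the series covariate, 8 by DESeq2 and 11 within the higher series. The part of leukocyte RNA in the lower genes was not tested. Of 20 epithelium genes none passed by edgeR in either direction (1 higher at an unadjusted p under 0.05, by DESeq2 and by limma-voom), with summed CPM of 8348 to 9112 in DBL, 4589 to 13560 in ColGFP and 13160 to 16720 in TDonly. Without ColGFP replicate 1, 3 epithelium genes were higher, and without TDonly replicate 1, 1 was higher and 1 lower. None of 12 housekeeping genes and none of 20 cell cycle genes passed by edgeR, DESeq2 or limma-voom, or at an unadjusted p under 0.05, and by edgeR the count stayed 0 without each library in turn.

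Differences were larger in the lower series for most members. Of the 487 genes above that could also be fitted in the higher series, 389 had a larger averaged difference between the 3 replicate 1 libraries, as had 179 of 263 genes below. The lower series value is a difference of log2 CPM, and the higher series value comes from a fit of its own. The share over all genes tested was not counted, so this is not shown to be particular to the members. In the 12 named genes on the high side, ColGFP replicate 1 and TDonly replicate 1 were mostly the lowest libraries, while DBL replicate 1 lay near the other DBL libraries. Aldh1a2 differed by 3.92 between the replicate 1 libraries and by 1.81 (adjusted p = 2.94e-10) in the higher series alone. For Ccl11 these values were 4.76 and 2.64 (adjusted p = 8.04e-11). On the low side Car2 differed by -0.74 and -0.72. The 6 libraries of the higher series called 2191 genes higher and 667 lower than the average, and 404 higher and 108 lower than both populations. Of the members, 406 of the genes above and 104 of the genes below passed the averaged contrast there. These 6 libraries were among those by which the members were chosen, so these counts are a description.

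**Figure D5:**
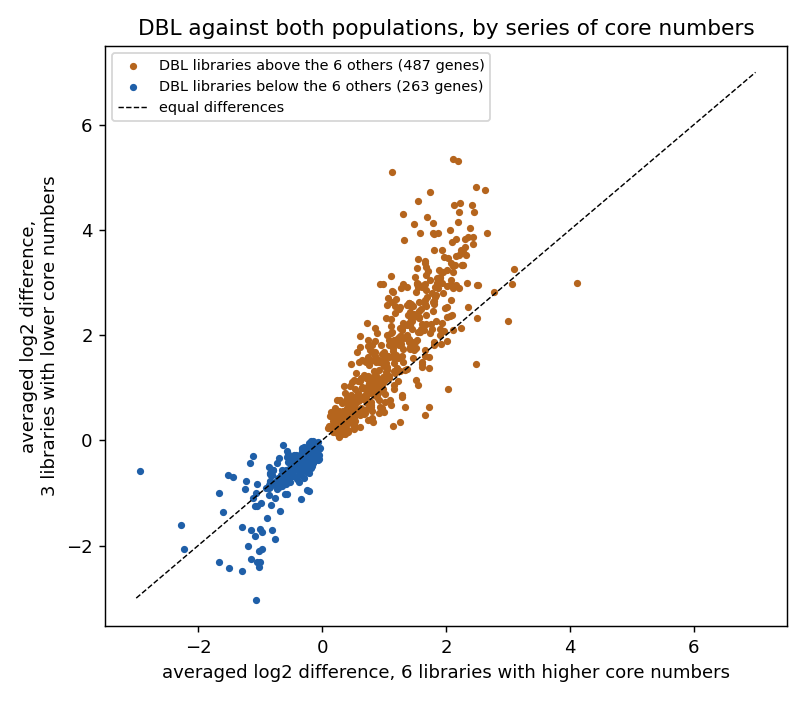
Averaged log2 difference of DBL from both populations in the 6 libraries with higher core numbers (horizontal) and in the 3 replicate 1 libraries with lower core numbers (vertical, with a prior count of 2), for the members with a value in both. Most brown points lie above the dashed line of equal differences, as 389 of 487 do.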

How the data were processed

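RNA-seq of sorted lung cells was analysed from the table of raw read counts per gene that the authors deposited. Per the submitters' processing notes, cutadapt, TopHat and HTSeq were used with mm10, with no versions or strand setting in the sources used here. The labels' protocol text describes RNA of frozen lungs and a TruSeq kit, and the series text names ribosomal RNA depletion of RNA from the sorted cells, so how these libraries were made is uncertain. In the table, 3 columns match no sample and were not used. Of 19348 genes, 15550 passed filterByExpr (minimum count 10). One edgeR 4.0.16 quasi-likelihood fit (R 4.3.3, TMM) had a mean per population and the core number series as covariate. Benjamini-Hochberg adjusted p under 0.05 was the threshold, two-sided. Named genes were those with the largest smaller pairwise change among non-overlapping genes that passed both pairwise tests and reached 10 CPM, 12 in each direction, unnamed models left out, plus up to 4 members per gene list. Members and lists were chosen with earlier results of these data known. Some genes stand on several lists and are counted in each (822 entries, 762 distinct genes). Alternatives were DESeq2 1.42.0, limma-voom (limma 3.58.1), other scalings and filters, and each library left out. Scripts were tested on simulated data. Coordinates are mm10, and promoters are from RefSeq (GRCm38.p6). Depth was 17820969 to 26147475 counts per library. Some members of the gene lists are not reported here by name.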

Additional observations from a re-analysis of the deposited data

Results flagged for a closer look

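The averaged difference of DBL from both single-reporter populations differed between the lower and the higher series of core numbers for 1033 genes (edgeR, interaction of the contrast with the series, Benjamini-Hochberg adjusted p under 0.05). Among them were all 12 named genes on the high side, with interaction log2 values from 1.11 for Chst4 to 2.29 for Lsamp. Each was larger in the lower series, and each still passed within the higher series alone. The higher series is part of the libraries by which these genes were chosen, so passing there is no separate support. The lower series holds 1 library per population, so its spread is taken from the other libraries, and series and replicate cannot be told apart there. None of the 12 named genes on the low side met this condition.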

How the results depend on the processing

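Under other scalings, filters, DESeq2 and limma-voom, the counts of called and of non-overlapping genes over all genes tested stayed within 1.5 times their values. Which genes these were changed more. Without TMM factors, 571 genes lay above and 230 below the other libraries, of which 436 and 157 were among the 489 and 266. With DESeq2 size factors, 481 of 500 above and 227 of 244 below were among them. With library totals alone, 301 genes were higher and 71 lower than both populations, of which 273 and 52 were among the 286 and 80. Without a covariate, 908 genes were higher and 156 lower than the average, and 135 and 32 higher and lower than both populations. With the replicate block these were 578, 65, 117 and 28, and of the endothelium, chemokine, WNT, collagen, elastic fibre and cadherin lists 1, 7, 8, 9, 9 and 4 members were higher than the average. DBL replicate 4 shares its number with no other library, so it stands alone in that block. With runs of 3 core numbers as the block, the same counts were 1241, 268, 233 and 61. Same-numbered libraries correlated at 0.0926 and 0.527 for replicate 1 of DBL with ColGFP and TDonly, and at 0.0156 and 0.232 for replicate 3. The replicate 1 libraries are also the lower series, so their values cannot show whether the numbers pair the samples. Within the higher series, DBL replicate 3 correlated at 0.0143 and 0.306 with replicate 2 of ColGFP and TDonly. Whether the numbers pair the samples was not tested. The higher series alone gave 667 genes lower than the average, and 1216 non-overlapping genes above and 886 below, with fewer libraries to exceed. Leaving out each library gave 872 to 2029 genes higher and 136 to 530 lower than the average, 175 to 340 and 35 to 93 higher and lower than both, and 517 to 833 above and 230 to 637 below without overlap. Of the genes named by size of change, 5 lost their call under some alternative. Under the replicate block, calls were lost for Gxylt2 (adjusted p = 0.158), Prkcq (0.0591), Pde4b (0.158) and Ogfrl1 (0.0900), and without the covariate for Pde4b (0.0646). Against the arithmetic mean of both populations, 155 of the 1480 higher genes lay below it, and of the named genes and list members checked singly, 15 did, on the log2 scale: Tcf21 -0.0056, Tagln -0.22, Robo4 -0.49, Rasip1 -0.59, Flt1 -0.58, Tie1 -0.59, Sox17 -0.61, Cd93 -0.63, Plvap -0.52, Aplnr -0.55, Ptprb -0.61, Ccbp2 -0.41, Kdr -0.47, Apln -0.35 and Nr4a1 -0.11. A mean of logs lies below the arithmetic mean by construction.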
